A study of Mus musculus with 8 samples.

Results

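The transcripts examined were those of 10 genes through which a B cell senses the cytokines of helper T cells: the receptor chains Il4ra, Il21r, Il2rg, Il13ra1, Ifngr1 and Il10ra, the transcription factors Stat3 and Stat6, and the feedback inhibitors Socs1 and Socs3. They were chosen by function, for their part in the response to IL-4, IL-21, IL-6, IFN-γ and, for Il10ra, IL-10. Earlier results of these data were known at that choice. The genes were taken by symbol from the 24259 symbols of the count table. All 10 were found, and all 10 had enough reads to be tested among the 12744 genes that passed the filter on low counts. RNA came from pre-germinal-center B cells of C57BL/6 background, sorted from lymph nodes on day 3 as NP+IgDlowB220+ cells, that is, B cells that bound the hapten NP, had lost most surface IgD and carried the B cell form of CD45. The recipients were CD45.1 Sap-/- mice, whose own T cells cannot sustain germinal centers, and they were immunized with NP-OVA and LPS in alum after OT-II T cells, which recognise ovalbumin, had been transferred. Recipients of CD4-CrexBcl6fl/+ OT-II cells, in which 1 Bcl6 allele is deleted, formed the HET group, and recipients of CD4-Cre OT-II cells with both alleles intact formed the WT group. Each group had 4 libraries.

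The Cre, and in HET the Bcl6 deletion, belonged to the transferred OT-II T cells, while the sequenced B cells were those of the recipients. Bcl6 of the B cells was thus unaltered, so no deleted gene was there to check the group names. The cells of several recipients were pooled within a group, and the 4 libraries of a group are repeats of about 200 cells each from that pool. The tests below therefore weigh a difference against the spread between repeats of a pool, and a difference between groups cannot be told apart from one between pools. Library totals lay between 6652386 and 12559189 counts, at which 3 counts correspond to 0.239 to 0.451 CPM (counts per 1000000 counts, here after TMM scaling of the library sizes). HET replicate 1 stood apart in Jchain, a transcript of antibody-secreting cells, at 1576 CPM against at most 94.8 CPM in the WT libraries. WT replicate 2 stood apart in the myeloid gene Lyz2, at 399 CPM. The next values of Lyz2 were 28.5 CPM in WT replicate 3 and at most 13.4 CPM in the HET libraries.

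IL-4 is sensed by the IL-4 receptor α chain, encoded by Il4ra, which pairs with the common γ chain, encoded by Il2rg, and in some cells with the product of Il13ra1. Janus kinases bound to the chains then phosphorylate STAT6, which in B cells drives CD23, class II major histocompatibility complex (MHC) genes and switching to IgG1 and IgE. IL-21 uses its own chain, encoded by Il21r, together with the common γ chain and works largely through STAT3, as do IL-6 and IL-10. SOCS proteins are made in response to these signals and shut the kinases off, and follicular helper T cells are a main source of IL-4 and IL-21 for B cells entering the germinal center.

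The comparison of HET with WT asked whether B cells carried other amounts of these transcripts when their T cell help came from Bcl6-heterozygous cells. Of the 10 genes, Il4ra stood lowest relative to WT for its spread, with a HET mean of 174 ± 9.68 CPM and a WT mean of 232 ± 20.9 CPM (SD, 4 libraries each), and it was the 1 gene of the 10 whose groups did not overlap, a pattern found in 4.61% of tested genes (2.62% lower and 1.99% higher in HET). By the quasi-likelihood test of edgeR, 0 of the 10 had an adjusted p under 0.05, a threshold passed by 0.0235% of all tested genes (3 of 12744, all lower in HET). At an unadjusted p under 0.05 there was 1 gene, Il4ra, where 7.22% of tested genes reached that level, and DESeq2 called 1 of the 10, again Il4ra, where it called 0.581% of its genes. The fitted fold change was above 0 for 4 of the 10 and below 0 for 6, with a median log2 fold change of -0.10 beside -0.0014 over all tested genes.

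**Figure D1:**
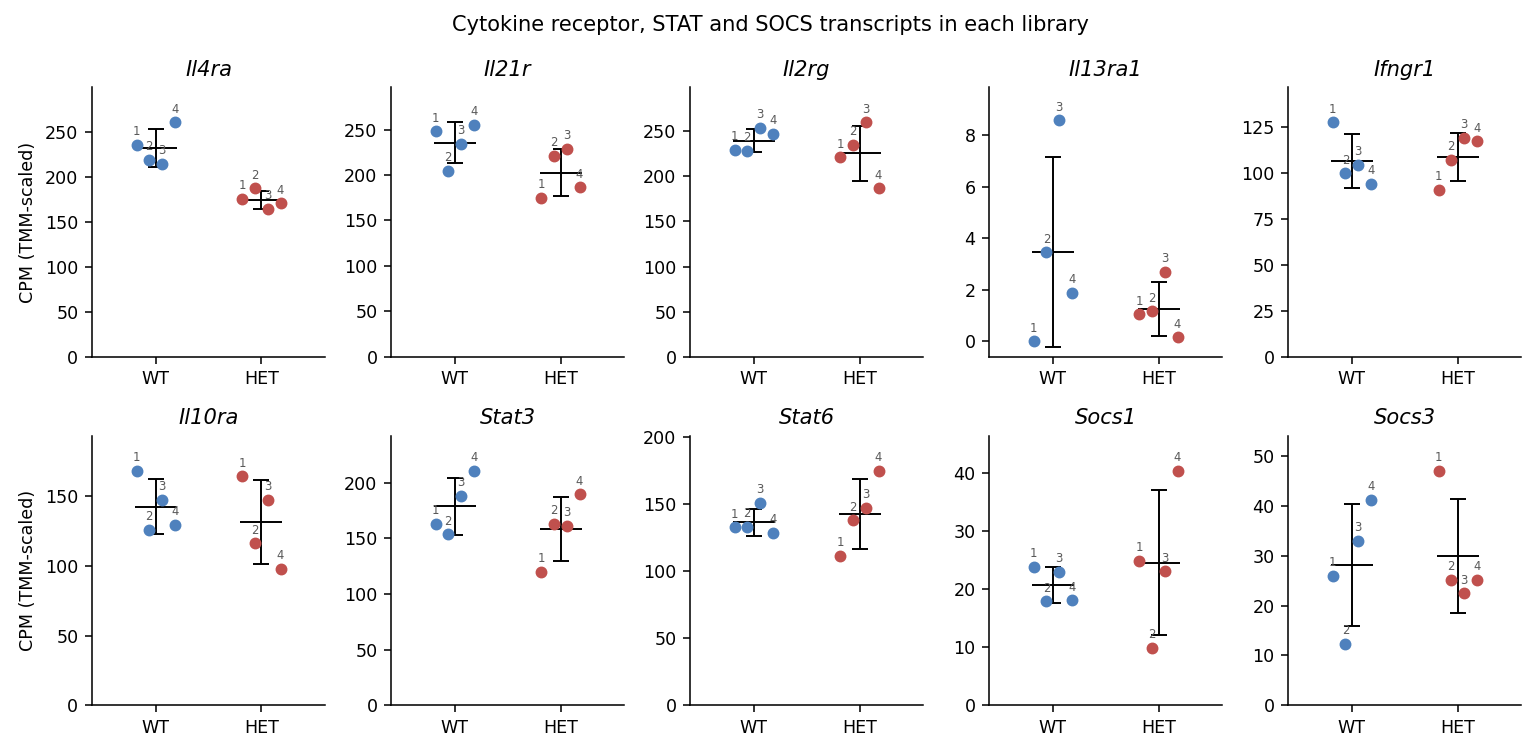
CPM after TMM scaling (vertical axis, from 0 except for Il13ra1) of the 10 genes in the 4 WT libraries (blue) and the 4 HET libraries (red), 1 panel per gene and 1 numbered point per library, with the mean and SD of each group in black. The 4 HET points of Il4ra lie between 164 and 187 CPM and all 4 WT points between 214 and 260 CPM, while the points of the other 9 genes overlap between the groups.

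Il4ra (chromosome 7, 125552120-125579474, plus strand of GRCm38, protein coding) encodes the chain that binds IL-4 and is shared by the IL-4 and IL-13 receptors. It had 175, 187, 164 and 170 CPM in HET replicates 1 to 4 and 235, 219, 214 and 260 CPM in WT replicates 1 to 4. Every HET library was below every WT library, as noted for 2.62% of tested genes. The HET mean was 0.750 of the WT mean, with a log2 fold change of -0.41 (SE 0.10, 95% interval -0.63 to -0.20, unadjusted p = 0.00118). The p adjusted over all tested genes was 0.280 in edgeR and 0.0186 in DESeq2, so the call rested on the tool. In edgeR it ranked 53rd of 12744 genes by p, and with any single library left out its log2 fold change stayed between -0.45 and -0.35, with an adjusted p of 0.248 to 0.593.

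The stretch of Il4ra below is shown because this gene differed most clearly for its spread. It comes from RefSeq (GRCm38.p6) and was cut at the first base of any GENCODE exon, so it lies before every annotated transcript of the gene. It was searched, within the window of 250 bases before to 50 after the start, for the spaced palindromes TTCNNNGAA, the general STAT site, and TTCNNNNGAA, the form that STAT6 prefers, and the whole window held neither, so that no base is in capitals.
Il4ra, chr7:125552021-125552119, plus strand: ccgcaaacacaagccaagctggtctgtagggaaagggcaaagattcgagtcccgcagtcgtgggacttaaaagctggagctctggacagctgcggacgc
Among all 32851 RefSeq windows of that length 8.30% held TTCNNNGAA and 6.95% held TTCNNNNGAA. Windows were at hand for 9 of the 10 genes (all but Il10ra), and 1 of the 9, that of Socs3, held the first motif and 0 the second. A match says only that these letters are in the window.

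Il2rg (chromosome X, 101264378-101268255, minus strand) encodes the common γ chain, which completes the receptors for IL-4 and IL-21. Its values were 221, 235, 260 and 187 CPM in HET and 229, 228, 254 and 247 CPM in WT. HET held both the highest library and the lowest one, so the WT libraries lay wholly inside the HET range. The log2 fold change was -0.09 (SE 0.11, 95% interval -0.32 to 0.15, edgeR adjusted p = 0.911), so a difference larger than the bounds of that interval was not seen in either direction.

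Il13ra1 (chromosome X, 36112110-36171259, plus strand), which encodes the other partner of the IL-4 receptor α chain, was near the limit of detection. HET libraries had 13, 9, 18 and 1 counts (1.05, 1.17, 2.70 and 0.152 CPM) and WT libraries 0, 34, 68 and 18 counts (0, 3.45, 8.58 and 1.88 CPM). WT replicate 1, with 0 counts, allows up to 0.282 CPM at 3 counts, a limit that covers counting error only. The WT group thus held both the lowest and the highest library. The log2 fold change of -1.45 had an SE of 1.09 and a 95% interval of -3.79 to 0.90 (edgeR adjusted p = 0.827), so a difference could not be resolved against the spread between libraries.

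Il21r (chromosome 7, 125603429-125633570, plus strand) encodes the IL-21 binding chain and begins 23954 bases after the end of Il4ra on the same strand. It had 175, 221, 228 and 186 CPM in HET and 248, 204, 234 and 255 CPM in WT. The lowest 2 libraries were both HET and the highest 3 were WT, but WT replicate 2 fell below HET replicates 2 and 3. The means were 203 ± 26.2 CPM in HET and 235 ± 22.5 CPM in WT, a log2 fold change of -0.22 (SE 0.12, 95% interval -0.47 to 0.03, unadjusted p = 0.0849 and adjusted p = 0.740 in edgeR). The unadjusted p went under 0.05 only when HET replicate 3 or WT replicate 2 was left out, to 0.0385 at the lowest.

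Il4ra and Il21r encode chains of 2 separate receptors, each completed by the common γ chain of Il2rg. The ratios of these 3 transcripts were compared within each library, a step added after the values had been seen. Il4ra per Il2rg was 0.783 ± 0.115 in HET and 0.971 ± 0.0935 in WT (SD, n = 4 each, exact permutation test over 70 arrangements, two-sided p = 0.0571, adjusted over 5 such values 0.0952). Il4ra per Il21r was 0.870 ± 0.119 in HET and 0.988 ± 0.0702 in WT (exact p = 0.114, adjusted 0.143). Il21r per Il2rg was 0.902 ± 0.0887 in HET and 0.984 ± 0.0885 in WT (exact p = 0.257, adjusted 0.257). All 3 ratios overlapped between the groups, so Il4ra was not shown to differ from the other 2 chains in its fold change, and the smallest p this design allows is 0.0286.

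Ifngr1 (chromosome 10, 19591949-19610229, plus strand) encodes the ligand-binding chain of the IFN-γ receptor. It had 91.0, 107, 119 and 117 CPM in HET and 128, 100, 104 and 94.4 CPM in WT. The lowest library was HET replicate 1 and the highest WT replicate 1, with the others mixed between them. HET minus WT was 0.03 on the log2 scale (SE 0.14, 95% interval -0.27 to 0.32, edgeR adjusted p = 0.980).

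Il10ra (chromosome 9, 45253837-45269149, minus strand) encodes the chain that binds IL-10. It had 164, 116, 148 and 97.8 CPM in HET and 168, 126, 147 and 130 CPM in WT. Replicate 1 was the highest library of either group, and HET replicates 2 and 4 were below all WT libraries. The log2 fold change was -0.12 (SE 0.16, 95% interval -0.46 to 0.23, edgeR adjusted p = 0.918), and it was -0.24 without HET replicate 1.

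Stat6 (chromosome 10, 127642986-127660957, plus strand), the transducer of IL-4, had a HET mean of 143 ± 25.98 CPM and a WT mean of 136 ± 9.83 CPM. It had 112, 138, 147 and 175 CPM in HET and 133, 133, 151 and 129 CPM in WT. The HET libraries spread on both sides of the WT libraries. On the log2 scale the fold change was 0.07 (SE 0.14, 95% interval -0.22 to 0.36, edgeR adjusted p = 0.956).

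Stat3 (chromosome 11, 100885098-100939540, minus strand), the transducer of IL-21, IL-6 and IL-10, had 120, 163, 161 and 190 CPM in HET and 163, 154, 188 and 211 CPM in WT. HET replicate 1 was the lowest library and WT replicate 4 the highest, and the other HET libraries lay within the WT range. The log2 fold change was -0.18 (SE 0.15, 95% interval -0.49 to 0.14, edgeR adjusted p = 0.850). Without HET replicate 1 it was -0.06.

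Socs1 (chromosome 16, 10782240-10785536, minus strand), an inhibitor of Janus kinases that IL-4 and IFN-γ induce, had 24.8, 9.84, 23.1 and 40.3 CPM in HET and 23.9, 17.9, 23.0 and 18.1 CPM in WT. The lowest and the highest library were both HET. Its log2 fold change was 0.24 (SE 0.34, 95% interval -0.49 to 0.98, edgeR adjusted p = 0.921), and its sign turned when HET replicate 4 was left out.

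Socs3 (chromosome 11, 117966079-117970047, minus strand), the inhibitor that STAT3 induces and that acts on the IL-6 receptor, had 47.0, 25.1, 22.5 and 25.2 CPM in HET and 26.04, 12.4, 33.1 and 41.2 CPM in WT. HET replicate 1 stood alone above the other HET libraries, which lay close together within the WT range. The log2 fold change was 0.09 (SE 0.34, 95% interval -0.64 to 0.83, edgeR adjusted p = 0.977), but -0.21 without HET replicate 1 and -0.15 without WT replicate 2, so no direction was settled. The upstream window of Socs3 is shown as the only one of the 9 with a STAT motif, TTCTTAGAA of the TTCNNNGAA kind, in capitals. The motif starts 154 bases before the RefSeq start. The stretch lies in an intron of a GENCODE transcript, and the downstream end of the stretch was cut at the next exon.
Socs3, chr11:117969452-117969616, minus strand: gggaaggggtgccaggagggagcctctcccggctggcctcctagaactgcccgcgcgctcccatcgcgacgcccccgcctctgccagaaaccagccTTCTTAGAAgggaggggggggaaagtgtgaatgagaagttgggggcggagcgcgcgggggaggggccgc

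**Figure D2:**
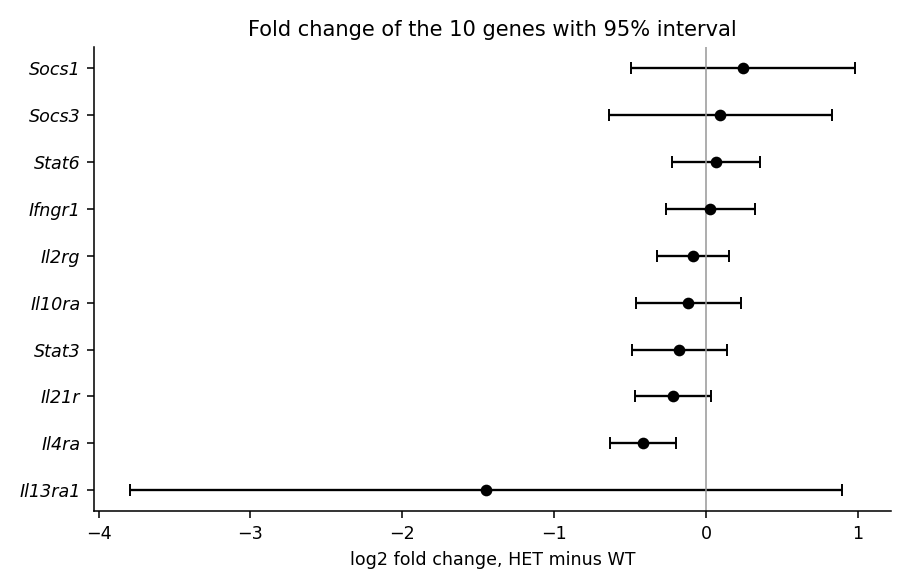
Log2 fold change of HET minus WT (horizontal axis) for each of the 10 genes, ordered by value, with the 95% interval of edgeR's quasi-likelihood fit as bars and a grey line at 0. The interval of Il4ra, from -0.63 to -0.20, is the only one that does not cross 0, and that of Il13ra1, from -3.79 to 0.90, is the widest.

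Levels were compared between genes as TPM (transcripts per 1000000 transcripts) computed from the counts and the summed exon length of each gene. Il2rg was the most abundant of the 10, at 212 ± 24.4 TPM (SD over 8 libraries), and stood above 95.5% of all tested genes. Il21r followed at 144 ± 21.1 TPM, below Il2rg in all 8 libraries and above the third gene in all 8. Il10ra at 85.2 ± 14.3 TPM, Ifngr1 at 82.4 ± 10.6 TPM, Il4ra at 73.8 ± 13.2 TPM and Stat6 at 69.2 ± 10.5 TPM formed a group of neighbours. Each exceeded the next in only 6, 6 and 5 of the 8 libraries, so their order was not the same in every library. Il4ra had 62.4 ± 4.08 TPM in HET and 85.15 ± 6.68 TPM in WT, and Stat6 had 70 ± 14.4 and 68.3 ± 6.79 TPM. The place of Il4ra thus differed between the groups, and its SD over 8 libraries includes that difference. With the longest transcript as the length, Il10ra and Ifngr1 changed places and the other 8 kept their rank.

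Stat3 came next at 38.7 ± 7.04 TPM, below Stat6 in all 8 libraries, with a ratio of Stat6 to Stat3 of 1.81 ± 0.225. Socs3 had 21.8 ± 7.88 TPM and Socs1 16.9 ± 6.48 TPM, and Socs3 was the higher of them in 5 of 8 libraries, so these inhibitors were not separated. Il13ra1 lay far below, at 1.42 ± 1.71 TPM with a range of 0 to 5.30 TPM, where only 7.78% of tested genes were lower. Of the 2 chains that can join the IL-4 receptor α chain, the common γ chain transcript was thus the abundant one, with a ratio of Il2rg to Il4ra of 2.94 ± 0.516 (2.39 to 3.98 over the 8 libraries). The coefficient of variation between libraries ran from 9.84% for Il2rg to 38.4% for Socs1, and it was 117% for Il13ra1.

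**Figure D3:**
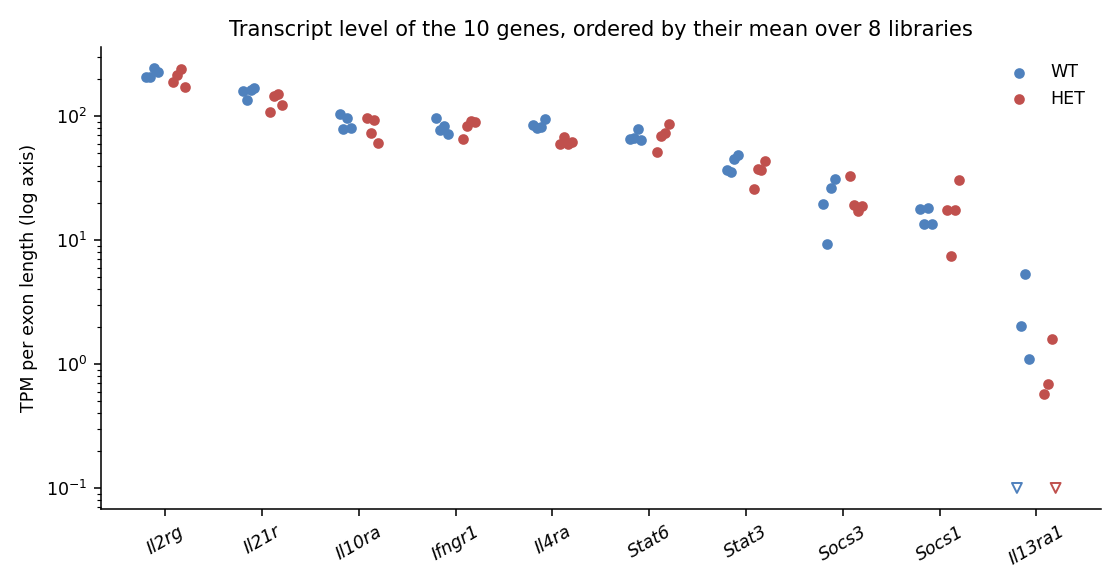
TPM per summed exon length (vertical log axis) of the 10 genes, ordered by their mean over the 8 libraries, with WT libraries in blue and HET libraries in red, 1 point per library. Il2rg and Il21r lie above 100 TPM in every library, 4 genes lie close together from 51.7 to 104 TPM, and Il13ra1 lies at the bottom, where open triangles at 0.1 stand for WT replicate 1 at 0 TPM and HET replicate 4 at 0.0892 TPM.

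The rest of the pathway was followed through 44 further genes with a row in the table, of which 37 were tested (12 with a fold change above 0, 25 below, median log2 fold change -0.11). None of them passed an adjusted p of 0.05 in edgeR or in DESeq2, and 1 of the 37 had an unadjusted p under 0.05, where 7.22% of all tested genes did. The ligand genes were hardly represented in the sorted cells. None of Il4, Il6, Il10, Ifng and Il2 had enough reads for a test, and their highest values in any library were 0.757, 3.05, 1.01, 0.0950 and 1.04 CPM. Il13 and Il21 were not analysed here.

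Among the other receptor chains 15 of 17 were tested, 7 with a fold change above 0 and 8 below. Ifngr2, the signalling chain of the IFN-γ receptor and the gene with an unadjusted p under 0.05, had 83.1, 91.7, 122 and 87.8 CPM in HET and 138, 141, 119 and 131 CPM in WT. HET replicates 1, 2 and 4 were below all WT libraries, and HET replicate 3 was above WT replicate 3, so the groups overlapped. Its log2 fold change was -0.46 (SE 0.14, unadjusted p = 0.00460), with an adjusted p of 0.481 in edgeR and 0.141 in DESeq2. Il6ra and Il6st, the IL-6 receptor chains, were present at 23.3 ± 8.04 and 12.5 ± 3.71 CPM in HET and 26.4 ± 11.7 and 11.5 ± 6.34 CPM in WT.

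Of the other kinases and STAT factors, all 8 listed were tested, with 3 fold changes above 0 and 5 below. Jak1 serves the receptors for IL-4, IL-21, IL-6, IFN-γ and IL-10. It had 329 ± 22.7 CPM in HET and 386 ± 61.6 CPM in WT (log2 fold change -0.23, SE 0.11, edgeR adjusted p = 0.713). Of 14 other inhibitors, which include the remaining SOCS genes, phosphatases and PIAS proteins, 2 had a fold change above 0 and 12 below, with a median log2 fold change of -0.15 and no gene at an unadjusted p under 0.05. A fold change below 0 was found for 50.1% of all tested genes.

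The transcripts that STAT6 and STAT3 are known to drive were read next, as 19 distinct genes of which 18 were tested (4 above 0, 14 below). At an unadjusted p under 0.05 there were 9, with 2 higher in HET and 7 lower, where 3.34% of all tested genes were higher and 3.88% lower at that level. The groups did not overlap for 5 of the 18, all lower in HET, where 2.62% of all tested genes had that pattern. None passed an adjusted p of 0.05 in edgeR, and DESeq2 called 2 of them, Il4i1 and H2-Eb1, where it called 0.581% of its genes. The lists were put together from general knowledge but with earlier results of these data known, so these counts are a description. A gene of a list need not depend on that factor in these cells.

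Of 12 tested STAT6 targets, 5 were lower in HET and 2 higher at an unadjusted p under 0.05. Il4i1, an amino acid oxidase named for its induction by IL-4, had 298, 294, 371 and 278 CPM in HET and 442, 373, 434 and 589 CPM in WT. All HET libraries were below all WT libraries, by a narrow margin between HET replicate 3 and WT replicate 2. For Il4i1 the log2 fold change was -0.57 (SE 0.13), with an adjusted p of 0.257 in edgeR and 0.0255 in DESeq2.

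The class II MHC genes H2-Aa, H2-Ab1 and H2-Eb1, which present antigen to helper T cells, were also lower in each HET library than in each WT library. That pattern was found in 2.62% of all tested genes. H2-Aa had 5188 ± 557 CPM in HET and 6421 ± 216 CPM in WT, and edgeR gave a log2 fold change of -0.31 (SE 0.07, adjusted p = 0.233). H2-Eb1 had 4087 ± 341 and 5056 ± 253 CPM (log2 fold change -0.31, SE 0.06), with an adjusted p of 0.217 in edgeR and 0.0499 in DESeq2. H2-Ab1 had 5401 ± 446 and 6375 ± 311 CPM (log2 fold change -0.24, SE 0.06, edgeR adjusted p = 0.328).

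Fcer2a, which encodes CD23, the low-affinity IgE receptor and a classical IL-4 response gene, was outside the rule for naming genes and is given after its value was seen. It had 970 ± 137 CPM in HET and 1172 ± 57.9 CPM in WT, and the groups overlapped through HET replicate 3 at 1170 CPM (log2 fold change -0.27, SE 0.09, edgeR adjusted p = 0.554). The RefSeq window before 1 of its annotated starts is shown as an example of the STAT6 form of the motif, TTCCCAAGAA of the TTCNNNNGAA kind, in capitals, which begins 168 bases before that start. This stretch lies in an intron of a GENCODE transcript. It is the only Fcer2a window with a motif, and the window before every annotated transcript of the gene held none.
Fcer2a, chr8:3690862-3691111, minus strand: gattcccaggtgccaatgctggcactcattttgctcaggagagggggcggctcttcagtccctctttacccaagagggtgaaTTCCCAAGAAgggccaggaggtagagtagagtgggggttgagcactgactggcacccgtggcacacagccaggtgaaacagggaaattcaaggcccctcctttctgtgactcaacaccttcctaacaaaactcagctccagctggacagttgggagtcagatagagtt
Of the 15 windows of STAT6 targets, 3 held TTCNNNNGAA and 1 held TTCNNNGAA, where 6.95% and 8.30% of all RefSeq windows did. Among those 3 was the window of Vdr, a gene with at most 1 count in any library.

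Batf, a transcription factor needed for class switching and listed as a target of both STAT6 and STAT3, ran the other way. It had 88.9, 112, 70.4 and 80.5 CPM in HET and 40.4, 71.8, 51.2 and 45.0 CPM in WT. HET replicate 3 fell just below WT replicate 2, and the other HET libraries were above all WT libraries. For Batf the log2 fold change was 0.76 (SE 0.20), with an adjusted p of 0.328 in edgeR and 0.0532 in DESeq2. The other STAT6 target on that side was Bcl2l1, the survival gene of Bcl-xL, at 18.1 ± 4.90 CPM in HET and 9.76 ± 5.42 CPM in WT (a fold change of 0.88 on the log2 scale, adjusted p = 0.667 by edgeR), also named after its value was seen.

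Of 7 tested STAT3 targets, 6 had a fold change below 0 and Batf had one above. Junb, an AP-1 subunit, had 291 ± 47.0 CPM in HET and 401 ± 71.6 CPM in WT, without overlap (log2 fold change -0.46, SE 0.14, edgeR adjusted p = 0.492). Bcl6, the repressor that germinal center B cells need and the gene that was altered in the T cells but not in these cells, had 35.6, 40.0, 58.9 and 47.8 CPM in HET and 71.2, 45.3, 59.4 and 81 CPM in WT. WT replicate 2 lay within the HET range, and the log2 fold change was -0.50 (SE 0.21, unadjusted p = 0.0344, edgeR adjusted p = 0.630). Prdm1, which encodes the plasma cell factor Blimp-1, had 3.46 ± 4.56 and 4.09 ± 4.64 CPM.

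**Figure D4:**
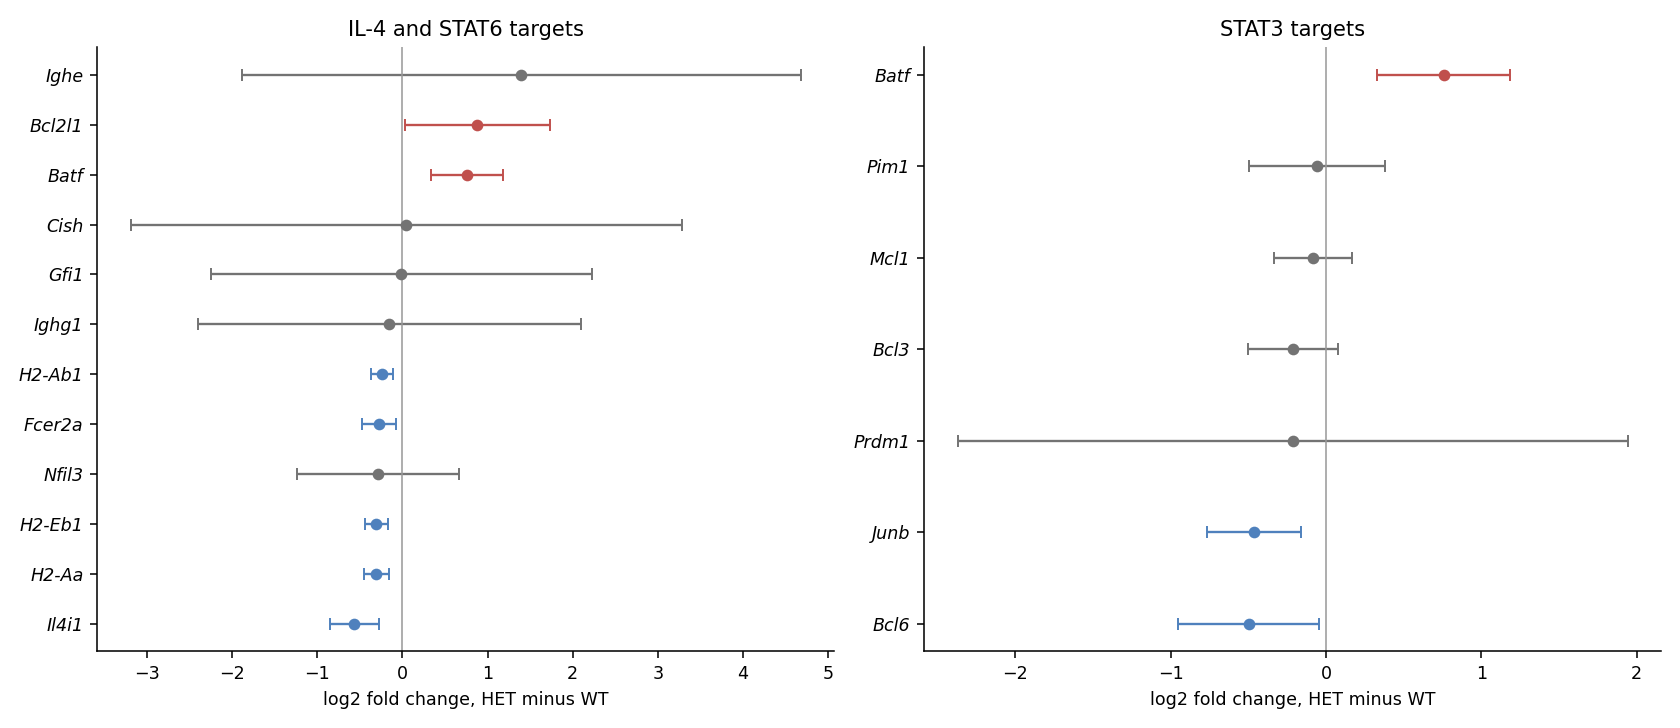
Log2 fold change of HET minus WT with its 95% interval for the tested targets of STAT6 (left) and STAT3 (right), with blue for genes lower and red for genes higher in HET at an unadjusted p under 0.05 and grey for the others. Il4i1, the class II MHC genes, Fcer2a, Junb and Bcl6 lie left of 0, and Batf, which is in both lists, and Bcl2l1 lie right of 0.

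General B cell transcripts were compared in the same way. Of 9 B cell markers, 9 had a fold change below 0 (50.1% of all tested genes), 7 of them at an unadjusted p under 0.05 (3.88% of all tested genes on the lower side) and 5 without overlap (2.62%). Their median log2 fold change was -0.21, the same as that of the 18 tested STAT targets at -0.21. The count of 7 was 4 without HET replicate 1, HET replicate 2 or WT replicate 3, and with edgeR 0 of the 9 passed an adjusted p of 0.05. Cd22, an inhibitory B cell receptor, had 725 ± 23.7 CPM in HET and 937 ± 93.2 CPM in WT (log2 fold change -0.37, SE 0.08), with an adjusted p of 0.220 in edgeR and 0.0174 in DESeq2. The summed markers took 11490 ± 508 CPM in HET and 13210 ± 504.2 CPM in WT, without overlap (exact permutation p = 0.0286, the smallest possible here, adjusted over the 5 added values 0.0952). Per 1000 CPM of these markers, Il4ra was 15.2 ± 1.24 in HET and 17.6 ± 1.94 in WT, and on that scale the groups overlapped (exact permutation p = 0.0571, adjusted 0.0952). Fewer cells of a type and less RNA per cell cannot be told apart in such pooled libraries. The part of the B cell markers in the value of Il4ra was not tested further, and their part in the values of the STAT targets was not tested.

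Transcripts listed as markers of other cells were present in both groups. Of 15 tested T cell markers, 14 had a fold change above 0, where 6356 of all 12744 tested genes did, and 0 had an unadjusted p under 0.05. The sum of the list was 544 to 907 CPM in HET and 449 to 751 CPM in WT (exact permutation p = 0.286, adjusted over 3 lists 0.429). Its largest parts were Cd2, the marker with a fold change below 0, and Lck. Cd2 had 197 ± 33.9 CPM in HET and 217 ± 17.7 CPM in WT, and Lck had 138 ± 24.8 and 120 ± 24.4 CPM. Cd3e, Cd3d, Cd3g and Trac had means of 18.1, 35.7, 27.8 and 29.4 CPM in HET and 13.6, 18.75, 20.3 and 19.7 CPM in WT. Much of the level of the sum thus came from Cd2 and Lck, and the sum does not measure the share of T cells. Cd4, which defines helper T cells, reached at most 0.758 CPM in any library, whereas Cd8a had 35.6 ± 16.1 CPM in HET and 24.3 ± 12.5 CPM in WT. The summed myeloid markers ranged from 168 to 392 CPM in HET and 126 to 488 CPM in WT (exact permutation p = 0.857). The largest part was Ly6c2, at 224 ± 86.7 CPM in HET and 108 ± 74.8 CPM in WT, except in WT replicate 2, where it was Lyz2. The sum thus mainly follows these genes and says little about the others of the list. C1qa was at 0 in every WT library and had 17, 4, 0 and 1 counts in HET replicates 1 to 4, too few reads for a test. Of the 6 tested myeloid markers, 2 had a fold change above 0 and 4 below, and 1 had an unadjusted p under 0.05. That gene, Csf1r, the receptor for macrophage colony-stimulating factor, had 7.88, 7.25, 5.09 and 9.71 CPM in HET and 13.6, 16.9, 18.7 and 8.14 CPM in WT, with WT replicate 4 inside the HET range (log2 fold change -0.93, SE 0.36, unadjusted p = 0.0218, edgeR adjusted p = 0.602). The summed plasmablast markers ranged from 286 to 2106 CPM in HET, the highest in replicate 1 through Jchain at 1576 CPM, and from 230.3 to 529 CPM in WT (exact permutation p = 0.257). Of the 7 tested, 5 had a fold change above 0 and 2 below, and 1 had an unadjusted p under 0.05. That gene, Slpi, which encodes a secreted protease inhibitor, had 23.6, 20.6, 1.65 and 5.16 CPM in HET and 5.04, 2.64, 1.14 and 0 CPM in WT, with HET replicates 1 and 2 far above all others and the groups overlapping through HET replicate 3 (log2 fold change 2.52, SE 1.07, unadjusted p = 0.0407, edgeR adjusted p = 0.657). Several of the 10 cytokine genes are also used by T and myeloid cells, and the part of those cells in their levels was not tested. Without HET replicate 1 the log2 fold change of Il4ra stayed within the range given above for single libraries left out, and 0 of the 10 genes passed the adjusted threshold there or without WT replicate 2.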

How the data were processed

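RNA of about 200 cells per library was amplified by a SMART-Seq2 protocol. The authors ran FastQC, Hisat2 2.2.1 against GRCm38, Samtools and HTSeq-count, in that order, to obtain read counts. Which annotation release and strand setting were used, and how reads with several alignments were treated, is not given in the sources used here, so reads of overlapping genes cannot be assigned with certainty. The deposited count table holds whole-number counts for 24259 symbols, and the deposited TPM table holds 24232. For 98.0% of 5403 well-covered genes the deposited TPM matched, within 2%, counts divided by the mean genomic span of the transcripts of a gene, introns included, so it was not used to rank genes. This departs from the plan, and TPM was computed here from counts and the GENCODE M21 summed exon length.

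Counts were tested with edgeR 4.0.16 (R 4.3.3) by filterByExpr, TMM scaling and the robust quasi-likelihood F-test, with Benjamini-Hochberg adjustment over 12744 genes and a threshold of 0.05. The SE was obtained by dividing the absolute log2 fold change by the root of the F statistic. Alternatives were DESeq2 1.42.0, which the study used, RLE scaling, other filters, limma 3.58.1 (voom, and trend on log2 of the deposited TPM with a pseudocount of 1 or 0.1), a replicate block, and leaving out each library. Single values were compared by exact permutation tests over 70 arrangements, two-sided. SMART-Seq2 has no molecular identifiers, so count limits cover counting error only. Repeats of a group differed by more than sampling noise (chi-square per degree of freedom of at least 12.6), so none was counted as a duplicate. The fit was checked on simulated data.

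The 10 genes and all lists were chosen with earlier results of these data known. The rule for named genes was all 10, plus, from each list, genes past an adjusted p of 0.05 and at most the 4 lowest unadjusted p under 0.05, and the 3 genes most like the one of the 10 with the lowest p. Levels of genes outside it are given as a description. The lists of ligands, myeloid cells and others lost Il13, Il21 and Mpo, which were not analysed here. A further planned target list and 1 gene are not reported here.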

Additional observations from a re-analysis of the deposited data

Results flagged for a closer look

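Within groups of 4 libraries, the distance of the farthest library to its nearest neighbour was set against the whole range of the group, and 2 of 26 groups of values held a library farther away than Dixon's 95% limit allows, where chance gives about 1 in 20. Socs3 in HET replicate 1 was at 47.0 CPM with the other HET libraries at 22.5 to 25.2 CPM, a gap of 0.890 of the range. The summed plasmablast markers in HET replicate 1 were at 2106 CPM with the others at 286 to 548 CPM, a gap of 0.856 of the range. Both values come from the same library, and a relation between them was not tested.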

How the results depend on the processing

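Over the 8 alternative settings, the 10 genes held their direction and side of the threshold in 76 of the values, with 1 newly past the threshold (Il4ra in DESeq2) and 2 reversed. The number of the 10 genes called was 0 in edgeR and 1 in DESeq2, and the number at an unadjusted p under 0.05 was 1 to 2 with a library left out (2 without HET replicate 3 or WT replicate 2). The other pathway genes at an unadjusted p under 0.05 went from 1 to 4 without a filter on low counts, to 2 with limma-voom and quality weights, and from 1 to 4 with a library left out (4 without HET replicate 1). The STAT targets called went from 0 to 2 in DESeq2, where 0.581% of its genes were called. Without a filter they went to 3 (H2-Aa, H2-Eb1 and Il4i1), where 0.157% of 24259 genes were called. Those at an unadjusted p under 0.05 were 7 to 9 with a library left out. Of the B cell markers, DESeq2 called 1 and edgeR 0, where they called 0.581% and 0.0235% of their genes. With a library left out, 4 to 7 of the markers had an unadjusted p under 0.05 (4 without HET replicate 1, HET replicate 2 or WT replicate 3). For the B cell markers these settings were added after seeing the data.

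Ifngr1 reversed to a log2 fold change of -0.02 with limma-trend on TPM at either pseudocount (-0.01898 with 1 and -0.01973 with 0.1). With a library left out, the range was -0.027 to 0.12 for Ifngr1, -0.24 to 0.0039 for Il10ra, -0.042 to 0.17 for Stat6, -0.10 to 0.51 for Socs1 and -0.21 to 0.34 for Socs3, all of which include a change of sign. It turned for Il10ra, Stat6 and Socs1 without HET replicate 4, for Socs3 without HET replicate 1 or WT replicate 2, and for Ifngr1 without HET replicate 3 or 4 or WT replicate 2 or 4. The log2 ratio of summed myeloid markers went from -0.21 to 0.65 (below 0 without HET replicate 1, WT replicate 3 or WT replicate 4), that of T cell markers from 0.14 to 0.45 and that of plasmablast markers from 0.18 to 1.58. The causes were not tested.

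Replicate numbers did not pair the libraries (correlations of same-numbered deviations between -0.04 and 0.02). With the replicate number as a block, 0 of the 10 genes were called, Il4ra had an adjusted p of 0.524, and 2 other pathway genes had an unadjusted p under 0.05. Over all alternatives with every library kept, the adjusted p of Il4ra lay between 0.0186 and 0.524. Il13ra1 (0 to 68 counts) and the ligand genes rest on few reads, and the counts of Il13ra1 varied widely between libraries of a group.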

Other observations

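The genes whose log2 CPM followed Il4ra most closely over the 8 libraries were Brd8 (Pearson r 0.955), Zkscan14 (0.955) and Ercc5 (0.948). All 3 were lower in HET, with Zkscan14 at 18.1 ± 3.25 CPM in HET and 37.1 ± 3.999 CPM in WT (edgeR log2 fold change -1.03, adjusted p = 0.217), and the libraries share the group difference, so these coefficients are a description.

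The deposited TPM put the 10 genes in another order than the values per exon length. Il21r, second per exon length at 144 TPM, was eighth in the deposited values at 22.6 TPM, while Socs3, at rank 8 with 21.8 TPM per exon length, was at rank 3 with 54.5 deposited TPM.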
